A study of Mus musculus with 8 samples.

Results

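The comparison set Th1 cells that lack Tet2 against wild-type Th1 cells. Its members were chosen by sample title: 2 arrays titled Th1 Tet2-/- and 2 titled Th1 Tet2 wild-type, 4 of the 8 arrays of the series, read across the 19938 genes that had a probeset with a single gene symbol. Both genotypes were C57BL/6 mice, and naive CD4+ T cells (CD25-, CD62Lhigh, CD44low) were sorted from spleens and lymph nodes. They were stimulated with plate-bound antibody to CD3 and soluble antibody to CD28, and all 4 Th1 cultures received IL-12 at 10 ng/ml, IL-2 at 30 U/ml and an antibody to IL-4. The other 4 arrays were Th17 cultures of the same genotypes, grown with TGF-β1 at 0.5 ng/ml, IL-6 at 10 ng/ml and antibodies to IFN-γ and IL-4. The age and sex of the mice, the length of culture and how the Tet2 allele was made were left unstated by the labels. The labels call the 2 arrays of a group biological replicates without saying whether they came from separate mice, so the tests measure the spread between these samples.

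Tet2 is a dioxygenase that oxidises 5-methylcytosine in DNA, which starts the removal of methyl groups. Naive CD4 T cells become Th1 cells when T cell receptor signals meet IL-12, which acts through STAT4 and the lineage factor T-bet (gene Tbx21), and Th1 cells are known for secreting interferon-γ. The Ifng locus is a textbook case of a gene whose methylation differs between naive cells and Th1 cells. The title of the series puts the question as the control of cytokine genes by DNA demethylation through Tet2.

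The 3 genes with the smallest p in the comparison were Ifng, Prdm1 and Il3, all lower without Tet2. Their promoters are shown because the enzyme acts on methylated CG dinucleotides, which are in capitals. Each run is the 250 bases before the RefSeq start, read 5′ to 3′ on the gene's strand (GRCm38.p6): chr10:118440796-118441045 on the plus strand for Ifng, chr10:44458749-44458998 on the minus strand for Prdm1 and chr11:54267280-54267529 on the minus strand for Il3.
Ifng: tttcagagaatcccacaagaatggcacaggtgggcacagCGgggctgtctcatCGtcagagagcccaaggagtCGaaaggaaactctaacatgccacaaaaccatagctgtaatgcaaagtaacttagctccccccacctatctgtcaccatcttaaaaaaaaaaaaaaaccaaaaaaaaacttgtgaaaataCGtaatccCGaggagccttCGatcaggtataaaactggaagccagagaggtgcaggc
Prdm1: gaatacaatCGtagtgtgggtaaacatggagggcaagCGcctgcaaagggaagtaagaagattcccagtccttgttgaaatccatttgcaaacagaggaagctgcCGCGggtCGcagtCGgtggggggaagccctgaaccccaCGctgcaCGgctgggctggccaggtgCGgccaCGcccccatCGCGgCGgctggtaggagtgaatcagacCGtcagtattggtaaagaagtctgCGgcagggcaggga
Il3: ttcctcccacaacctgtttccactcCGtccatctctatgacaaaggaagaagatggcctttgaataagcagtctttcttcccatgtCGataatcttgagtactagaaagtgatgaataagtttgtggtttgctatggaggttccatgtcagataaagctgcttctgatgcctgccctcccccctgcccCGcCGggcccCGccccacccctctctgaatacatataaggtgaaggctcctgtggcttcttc
The Ifng window holds 6 CG, the same as the median of all 32851 RefSeq windows of this length, and 53.7% of windows hold as few or fewer. The Il3 window holds 5, with 49.6% of windows holding as few or fewer, and the Prdm1 window holds 15, with 27.3% holding as many or more. These counts describe the letters only, since DNA methylation was not analysed here.

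Ifng, the gene of interferon-γ, fell in Tet2-/- Th1 cells and was the only gene that passed the test. Its probeset (10366586) read 11.56 and 11.89 log2 units on the wild-type arrays and 10.43 and 10.18 on the Tet2-/- arrays. Both Tet2-/- arrays lay over 1 log2 unit below both wild-type arrays. The means were 11.7 ± 0.228 and 10.3 ± 0.173 (SD, n = 2), a 2.68-fold lower level without Tet2. On the log2 scale Tet2-/- minus wild-type came to -1.42, with an SE of 0.139 and a 95% interval from -1.72 to -1.12. Limma gave an adjusted p = 0.00391 over all genes. Called genes made up 0.00502% of those tested. Leaving replicate 2 out of the wild-type pair gave -1.26 (adjusted p = 0.0685) and leaving it out of the Tet2-/- pair gave -1.30 (adjusted p = 0.128), and neither passed. The call also ended in 3 further settings that kept the difference at -1.42. Among them were the 4 Th1 arrays alone (adjusted p = 0.161) and all probesets (adjusted p = 0.353). Even at its lowest, 10.18 on Tet2-/- replicate 2, Ifng stood well above the median gene of the arrays (6.57 to 6.62). In bulk RNA, fewer cells that express a gene and less of its RNA per cell cannot be told apart, here and for every gene that follows. In the Th17 cultures, which received an antibody to IFN-γ, Ifng read 6.07 and 6.01 in wild-type and 6.00 and 6.06 in Tet2-/- cells. These levels lie below the median gene, and whether a fall could have been seen there was not tested. The difference between the 2 genotype effects was 1.41, with an adjusted p = 0.150 that was the smallest of all genes but did not pass.

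The size of the Ifng difference can be set against the spread between replicates. Only 3 genes differed by over 1 log2 unit between the genotype means, Ifng, Il3 and Timp1, and all 3 were lower without Tet2. Between replicates of the same genotype, 17 genes differed by that much in wild-type and 14 in Tet2-/- cells. These were differences between single arrays, which vary more through noise than differences between means. The counts of 17 and 14 are therefore not directly comparable with the 3 genes. Timp1, an inhibitor of matrix metalloproteinases, read 9.96 and 9.61 in wild-type and 8.30 and 9.16 in Tet2-/- cells. Its difference of -1.05 had an SE of 0.288 and an adjusted p = 0.824. For the median gene the SE was 0.125, and a difference of 0.27 gave an unadjusted p of 0.05. An unadjusted p under 0.05 was reached by 1145 genes (5.74%), close to the share that this threshold gives when no gene differs. Of these, 552 genes were higher (2.77% of 19938) and 593 lower (2.97%) in Tet2-/- cells. The arrays of the genotypes did not overlap in 3652 genes on the higher side (18.3%) and 2875 on the lower side (14.4%). With 2 arrays against 2, many genes do not overlap even where the genotypes do not differ. Over all genes the median difference was 0.01.

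**Figure D1:**
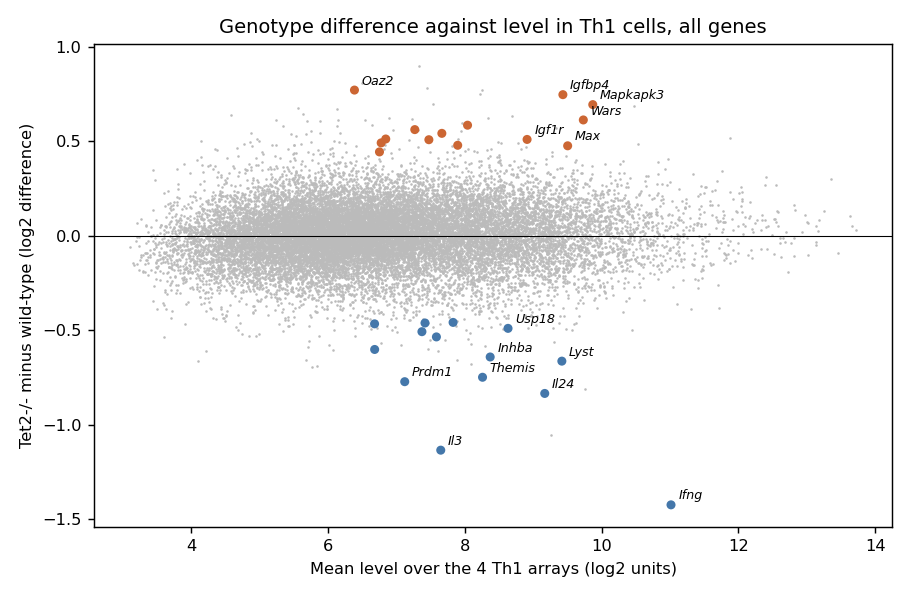
Tet2-/- minus wild-type log2 difference (vertical axis) against mean level over the 4 Th1 arrays (horizontal axis, log2 units), 1 point per gene. Orange and blue points are the 14 higher and 14 lower genes (Ifng included) with the smallest p among brighter genes, and grey points all other genes; Ifng at -1.42 and Il3 at -1.13 lie lowest.

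Interferon-γ was followed on the lower side by 3 further cytokines, none of which passed the test. Il3, which encodes a growth factor of blood progenitors and mast cells, read 8.13 and 8.30 in wild-type and 7.37 and 6.79 in Tet2-/- cells. It differed by -1.13 (SE 0.176, adjusted p = 0.179), and the spread between the Tet2-/- arrays (SD 0.410) was larger than that between the wild-type arrays (SD 0.114). Without Th1 Tet2-/- replicate 1 it passed the test, at -1.42 (adjusted p = 0.0337, against 0.0337 to 0.904 over all alternatives). Il24, a cytokine of the IL-10 family, had tightly matched replicates at 9.59 and 9.58 in wild-type and 8.79 and 8.72 in Tet2-/- cells. Its difference was -0.83 (SE 0.151, adjusted p = 0.384). Il21, a cytokine of follicular helper and Th17 cells, read 9.72 and 9.46 against 8.78 and 9.28, a difference of -0.56. In each of these genes both Tet2-/- arrays lay below both wild-type arrays.

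T cell cytokines as a list did not share that direction. The list had 32 measured genes, Ifng, Il3, Il24 and Il21 included, and 19 reached the median gene in their higher genotype mean. Of the 32, 18 were higher and 14 lower in Tet2-/- cells, with a median of 0.03 against 0.01 for all genes. At an unadjusted p under 0.05, 4 were lower (Ifng, Il3, Il24 and Il21, 12.5% against 2.97% of all genes) and 2 higher (Lif and Pgf, 6.25% against 2.77%). Lif, which signals through gp130, differed by 0.36 (8.69 and 8.51 against 9.04 and 8.88). Pgf, a relative of VEGF, read 5.08 and 4.99 against 5.21 and 5.34, below the median gene on every array. Tnf overlapped between genotypes at 10.75 and 10.86 against 10.90 and 10.47, and so did Csf2, the gene of GM-CSF, at 6.89 and 7.56 against 7.08 and 6.79. Il2 read 7.17 and 6.70 against 7.07 and 6.94. Il4, Il5, Il10 and Il17a were below the median gene on all 4 Th1 arrays, and their differences lay between -0.13 and 0.05. Il13 read 6.84 and 6.84 against 6.91 and 6.87.

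Among 13 TNF superfamily ligands 6 were higher and 7 lower, with a median of -0.04. The 2 at an unadjusted p under 0.05 were both lower (15.4%, against 2.97% of all genes). They were Fasl, the ligand of the death receptor Fas (8.13 and 8.12 against 7.87 and 7.76, difference -0.31), and Cd40lg, the helper signal to B cells (9.44 and 9.50 against 9.02 and 9.28, difference -0.32). Lta, the gene of lymphotoxin-α, read 10.19 and 10.27 against 10.11 and 9.70 (-0.33). Of 16 chemokines 7 were higher and 9 lower, with a median of -0.01. Xcl1, the chemokine that attracts XCR1+ dendritic cells, stood apart on the higher side at 7.79 and 7.89 in wild-type and 8.72 and 8.46 in Tet2-/- cells. Its difference was 0.75 (SE 0.198, adjusted p = 0.824). Ccl5 read 10.08 and 10.26 against 9.98 and 9.83, while Ccl3, an inflammatory chemokine, overlapped at 13.11 and 13.21 against 13.29 and 12.93. Ccl4 overlapped too, at 9.45 and 10.09 against 10.12 and 9.39.

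**Figure D2:**
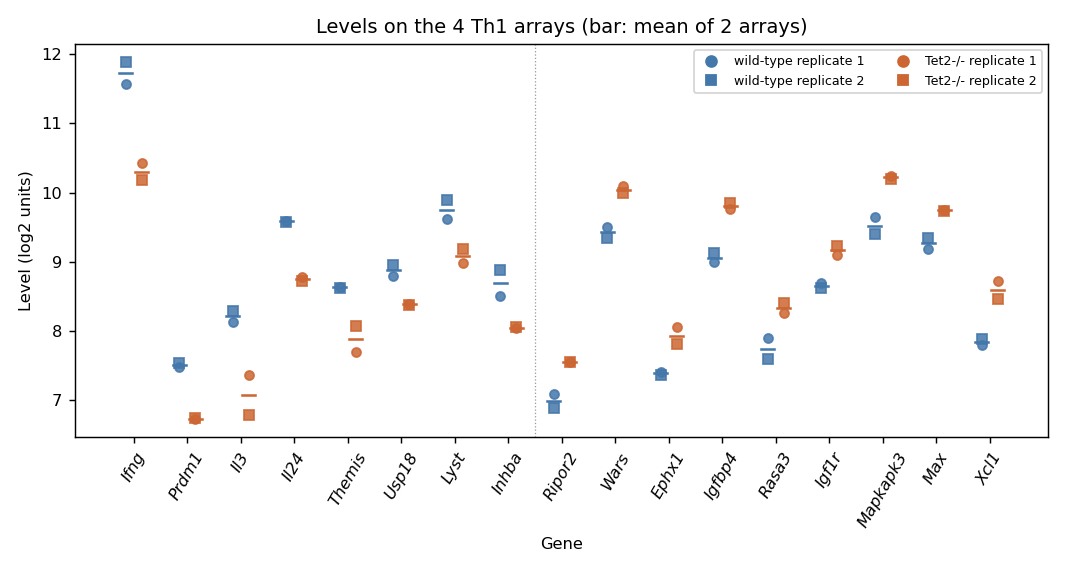
Levels (log2 units, vertical axis) of 17 genes on each of the 4 Th1 arrays, with a circle for replicate 1, a square for replicate 2 and a bar for the mean of 2 arrays; blue is wild-type and orange Tet2-/-. The 8 genes left of the dotted line are lower and the 9 to its right higher in Tet2-/- cells, with no overlap between genotypes; Ifng spans 11.56 to 11.89 in wild-type and 10.18 to 10.43 in Tet2-/- cells.

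None of the measured factors that drive Ifng in Th1 cells passed the test. Tbx21 read 10.27 and 10.20 in wild-type and 10.44 and 10.42 in Tet2-/- cells, a difference of 0.20 (interval -0.15 to 0.54). Stat4, which carries the IL-12 signal, overlapped at 9.94 and 10.19 against 9.74 and 10.03 (-0.18). Eomes, a T-box relative of T-bet, read 8.23 and 8.26 against 8.17 and 8.24 (-0.04). Runx3, a partner of T-bet at Ifng, differed by 0.29 (8.70 and 8.82 against 9.08 and 9.01). Hlx, a homeobox factor of Th1 cells, was lower at 6.59 and 6.50 against 6.16 and 6.23 (-0.35, SE 0.108), on probes near the median gene. Irf1, a factor induced by interferon-γ, was higher at 9.25 and 8.84 against 9.61 and 9.62 (0.57, SE 0.194). Its difference was 0.36 as the mean of its probesets and 0.37 without Th1 wild-type replicate 2. Of the 18 measured genes in this list, which includes Ifng, 9 were higher and 9 lower, and Ifng alone passed the test.

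Receptors that receive the Th1 signals did not pass the test either. Il12rb2, the inducible IL-12 receptor chain, read 11.88 and 11.78 in wild-type and 11.71 and 11.92 in Tet2-/- cells, a difference of -0.01 (interval -0.29 to 0.26). Its partner Il12rb1 was at 10.13 and 10.09 against 10.48 and 10.35 (0.30). Il18r1 and Il18rap, the 2 chains of the IL-18 receptor, differed by -0.30 and -0.26 with overlapping arrays. Il27ra, a chain of the IL-27 receptor, differed by 0.40, mostly through Tet2-/- replicate 1 (8.61 and 8.71 against 9.30 and 8.81). Ifngr1 and Ifngr2, the receptor for interferon-γ itself, differed by 0.11 and 0.10. Cxcr3, the chemokine receptor of Th1 cells, differed by 0.01. Over the 13 measured Th1 receptors 8 were higher and 5 lower, with a median of 0.01.

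Genes that respond to interferon-γ leaned to the higher side while Ifng fell. Of 25 measured members 18 (72.0%) were higher and 7 lower in Tet2-/- cells, against 52.2% of all genes on the higher side, and the median was 0.15. The arrays did not overlap in 11 members on the higher side (44.0%, against 18.3% of all genes) and in 1 on the lower side (4%, against 14.4%). Wars, the tryptophanyl-tRNA synthetase, which interferon-γ induces, read 9.50 and 9.35 in wild-type and 10.09 and 9.99 in Tet2-/- cells (0.61, SE 0.135, adjusted p = 0.737). Irgm1, a GTPase of cell-autonomous immunity, read 9.14 and 8.95 against 9.54 and 9.43 (0.44). Ido1, the tryptophan-degrading enzyme, was dim and its difference of 0.41 came from Tet2-/- replicate 2 (5.95 and 5.65 against 5.97 and 6.45). Cxcl10, a chemokine ligand of CXCR3, was lower at 6.87 and 6.81 against 6.49 and 6.58 (-0.31). None of the members passed the test.

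The type I interferon response, measured by a separate list, had 12 of 26 members higher and 14 lower, with a median of -0.03. The arrays did not overlap in 7 on the lower side (26.9%, against 14.4% of all genes) and in 2 on the higher side (7.69%, against 18.3%). At an unadjusted p under 0.05, 1 was lower (3.85%, against 2.97% of all genes) and 1 higher (3.85%, against 2.77%). Usp18, a protease that removes ISG15 and damps interferon signalling, was lowest at 8.80 and 8.95 in wild-type and 8.39 and 8.38 in Tet2-/- cells (-0.49, SE 0.114, adjusted p = 0.824). In Th17 cells it read 0.54 higher without Tet2, and the difference between the 2 effects was 1.03 (adjusted p = 0.194). Isg20, an exonuclease, was at the other end with 0.34. The wild-type arrays differed by -0.21 in the mean of this list, which is larger in size than the genotype median. A difference between single arrays varies more than a difference between genotype means, so these sizes are not directly comparable.

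Prdm1, the gene of Blimp-1, a repressor that directs effector differentiation in lymphocytes, had the second smallest p of all genes. Its probeset (10368970) read 7.48 and 7.53 in wild-type and 6.73 and 6.74 in Tet2-/- cells. The replicate SD was 0.0348 in wild-type and 0.00937 in Tet2-/- cells, with no overlap between genotypes. The difference was -0.77 (SE 0.115, interval -1.02 to -0.52, adjusted p = 0.176), a 1.71-fold lower mean without Tet2. In Th17 cells Prdm1 was below the median gene, at 5.89 and 5.84 against 5.97 and 6.23, and the difference between the 2 effects was 1.01 (adjusted p = 0.194). The list of terminal effector regulators, Prdm1 included, was divided, with 10 of 16 measured members higher (6 without Th1 wild-type replicate 1), 6 lower and a median of 0.06. Ikzf3, the gene of Aiolos, differed by 0.41 and Tox, a factor of persistently stimulated T cells, by 0.29. Zeb2, a repressor of memory fate, read 7.66 and 8.06 against 7.42 and 7.63 (-0.33).

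Several genes of naive and memory T cells lay on the higher side. Bach2, a repressor that holds T cells from effector fate, read 9.23 and 9.29 in wild-type and 9.73 and 9.75 in Tet2-/- cells (0.48). Myb, a factor of long-lived T cells, read 8.55 and 8.50 against 8.83 and 9.21 (0.49). Id3 differed by 0.39 and Sesn1, a FOXO target, by 0.39. In contrast Il7r, the receptor chain for the survival cytokine IL-7, was lower at 10.58 and 10.81 against 10.10 and 10.29 (-0.50, SE 0.135). Themis, a signalling adaptor of the T cell receptor needed in thymocytes, was lower at 8.64 and 8.63 against 7.69 and 8.08 (-0.75, SE 0.152, adjusted p = 0.607). The 19 measured members gave 10 higher and 9 lower with a median of 0.01, so the list as a whole sat at the median of all genes. The arrays did not overlap in 8 of the 19 on the higher side (42.1%, against 18.3% of all genes) and in 3 on the lower side (15.8%, against 14.4%).

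Of 16 cytotoxic granule genes 11 were lower (7 without Th1 wild-type replicate 2), with a median of -0.04. Gzmb, the gene of granzyme B, read 11.71 and 12.09 in wild-type and 11.55 and 11.50 in Tet2-/- cells (-0.38), and Serpinb6b, a protease inhibitor, differed by -0.31. For inhibitory and costimulatory receptors 9 of 21 were higher and 12 lower, with a median of -0.00. Cd27, a costimulatory receptor, read 8.35 and 8.18 against 8.41 and 8.95 (0.42, or 0.15 without Th1 Tet2-/- replicate 2), and Vsir, the gene of the checkpoint VISTA, differed by 0.39. Regulatory T cell genes were higher in 12 of 19, with a median of 0.11 (0.0201 without Th1 Tet2-/- replicate 1). Foxp3 read 6.52 and 6.50 against 6.55 and 6.74, near the median gene. Nrp1, neuropilin-1, differed by 0.56 but only through Tet2-/- replicate 1 (8.12, against 7.08 on replicate 2 and a wild-type mean of 7.04). Izumo1r, the gene of folate receptor 4, differed by 0.33 with no overlap.

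**Figure D3:**
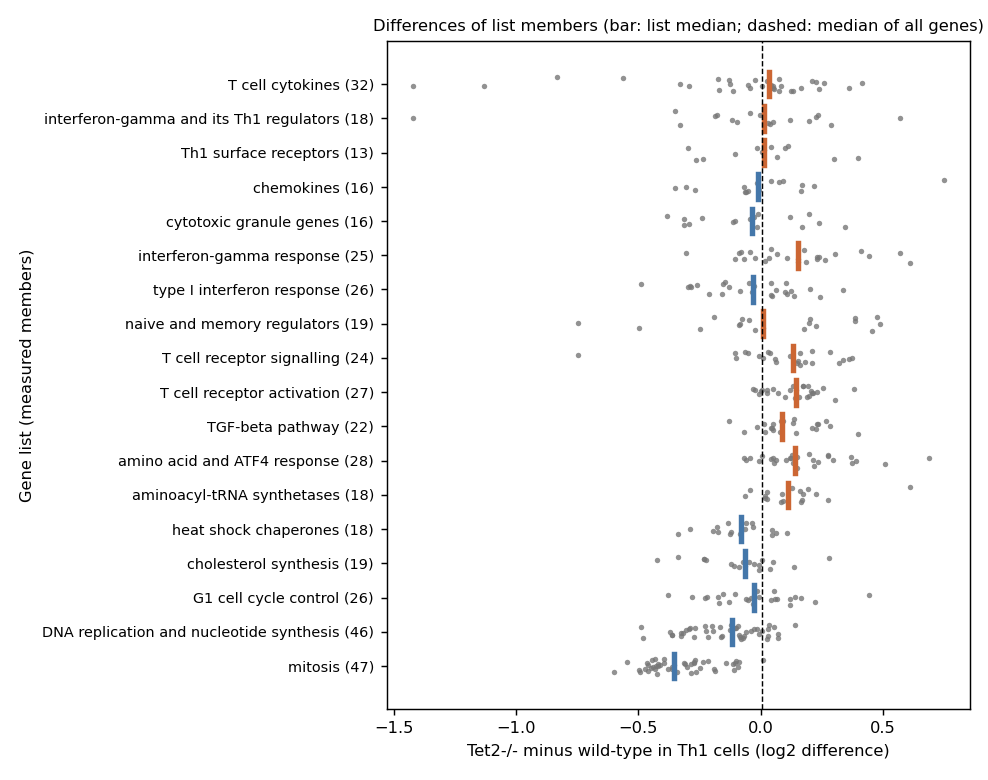
Tet2-/- minus wild-type log2 difference in Th1 cells (horizontal axis) for each measured member of 18 gene lists, whose measured members are counted in brackets. Bars mark list medians, orange above 0 and blue below, and the dashed line the median of all genes; mitosis at -0.35 lies farthest to the left.

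Genes that T cell receptor signals induce were mostly a little higher in Tet2-/- cells. Of 27 measured members 23 were higher and 4 lower, with a median of 0.14. The arrays did not overlap in 13 on the higher side (48.1%, against 18.3% of all genes) and in 0 on the lower side (against 14.4%). At an unadjusted p under 0.05, only 1 was higher (3.70%, against 2.77% of all genes) and 0 lower (against 2.97%). Fosl1, the AP-1 subunit FRA-1, was at the top with 7.90 and 7.91 against 8.43 and 8.14 (0.38). Dusp4, a MAP kinase phosphatase, differed by 0.30 and Nfkbia, the inhibitor of NF-κB, by 0.26. Nr4a2, a nuclear receptor, overlapped at 9.26 and 9.62 against 9.30 and 9.53. The proximal signalling genes showed 18 of 24 higher with a median of 0.13, which was 0.006025 without Th1 wild-type replicate 1. Zap70, the kinase that binds the receptor's phosphorylated tails, read 9.05 and 9.04 against 9.43 and 9.33 (0.34). Dgkz, a diacylglycerol kinase that limits the signal, read 8.41 and 8.50 against 8.84 and 8.81 (0.38, but 0.07 as the mean of its probesets). The negative regulator Ubash3a differed by 0.36. Themis, at -0.75, was the 1 member of this list that was lower at an unadjusted p under 0.05, and 0 members of either list passed the adjusted test.

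Genes of mitosis were almost all lower in Tet2-/- Th1 cells, though none of them passed the test. Of 47 measured members 46 (97.9%) were lower and 1 was higher, against 47.8% of all genes on the lower side. The median difference was -0.35, the arrays did not overlap in 34 members (72.3%, against 14.4% of all genes on the lower side), and 18 had an unadjusted p under 0.05 (38.3%, against 2.97% of all genes on the lower side). Ttk, a spindle checkpoint kinase, read 6.88 and 7.08 in wild-type and 6.30 and 6.46 in Tet2-/- cells (-0.60, SE 0.142, adjusted p = 0.824). Bub1, another checkpoint kinase, read 7.70 and 7.84 against 6.91 and 7.53 (-0.55). Mki67, the proliferation antigen Ki-67, read 9.68 and 9.94 against 9.20 and 9.42 (-0.50). Ccna2, cyclin A2, read 9.53 and 9.69 against 9.20 and 9.10 (-0.46). Cdc20, an activator of the anaphase-promoting complex, overlapped (7.68 and 7.84 against 7.49 and 7.85), and Troap was the member that was not lower, at 0.01 (-0.00345 with quantile normalization and -0.00467 with centred arrays).

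The mean level of the 47 mitotic genes was 7.79 and 8.03 on the wild-type arrays and 7.53 and 7.63 on the Tet2-/- arrays. Both Tet2-/- means were lower than both wild-type means. Wild-type replicate 2 stood 0.24 above wild-type replicate 1, and 38 of the 47 genes were higher on it. The median difference was -0.22 without wild-type replicate 2 and -0.50 without wild-type replicate 1. It was -0.28 without Tet2-/- replicate 1 and -0.41 without Tet2-/- replicate 2.

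Genes of DNA replication and nucleotide synthesis were lower by less. Of 46 measured members 37 were lower and 9 higher. The arrays did not overlap in 17 on the lower side (37.0%, against 14.4% of all genes) and 2 on the higher side (4.35%, against 18.3%). The median of -0.12 ran from -0.21 without Th1 wild-type replicate 1 to -0.06 without Th1 wild-type replicate 2. Rrm2, the ribonucleotide reductase subunit, read 9.50 and 9.96 against 9.33 and 9.15 (-0.49), and Tyms, thymidylate synthase, 8.52 and 8.73 against 8.07 and 8.21 (-0.48). Rfc4, of the clamp loader, differed by -0.37. Genes of G1 control were divided, with 10 of 26 higher, 16 lower (10 without Th1 wild-type replicate 2) and a median of -0.03. Cdkn2b, the CDK inhibitor p15, read 6.06 and 6.03 against 6.41 and 6.56 (0.44), below the median gene on all 4 arrays. Ccne2, cyclin E2, read 8.46 and 8.38 against 7.87 and 8.21 (-0.38). Myc was bright and close in both genotypes, at 11.37 and 11.34 against 11.45 and 11.54.

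**Figure D4:**
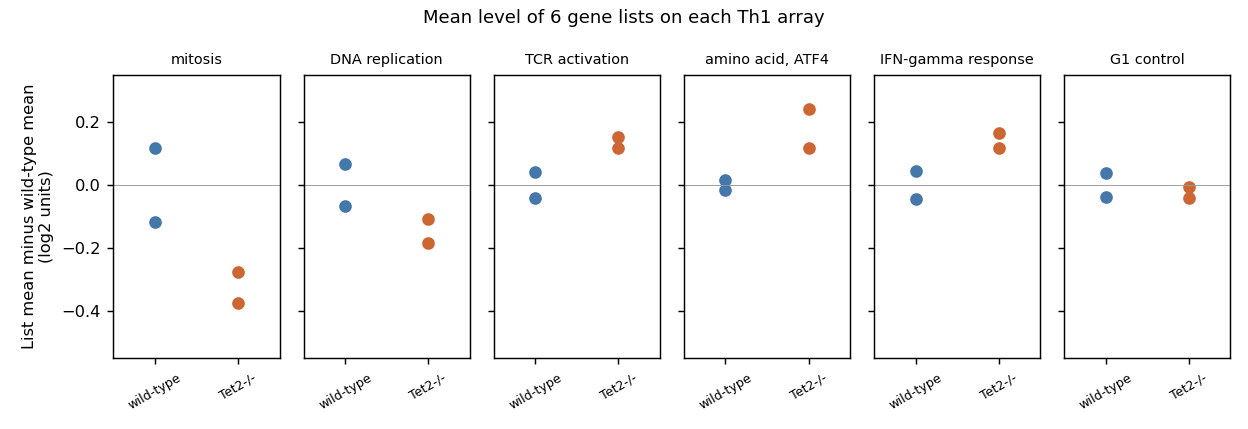
Mean level of 6 gene lists on each Th1 array, minus the mean of the 2 wild-type arrays (vertical axis, log2 units), with 1 point per array in blue for wild-type and orange for Tet2-/-. The mitosis means are 7.79 and 8.03 in wild-type and 7.53 and 7.63 in Tet2-/- cells, the widest separation of the 6 lists, and those of G1 control overlap.

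Genes of the amino acid response, which ATF4 drives when amino acids run short or the endoplasmic reticulum is stressed, were higher in 24 of 28 measured members (85.7%). The median was 0.14, with 11 members not overlapping on the higher side (39.3%, against 18.3% of all genes) and 0 on the lower side (against 14.4%). Without Th1 Tet2-/- replicate 1 the median was 0.27. Slc1a5, a glutamine transporter, read 10.25 and 10.01 in wild-type and 11.04 and 10.60 in Tet2-/- cells (0.69, SE 0.205). Chac1, which degrades glutathione, differed by 0.51, more in Tet2-/- replicate 2 (6.94 and 6.92 against 7.14 and 7.74). Phgdh, the first enzyme of serine synthesis, read 8.13 and 7.97 against 8.33 and 8.53 (0.38). Atf3, a stress-induced factor, read 9.50 and 9.32 against 9.76 and 9.84 (0.39), while Slc7a11, a cystine transporter, overlapped at 5.10 and 5.35 against 5.10 and 5.21. Aminoacyl-tRNA synthetases, many of them ATF4 targets, were higher in 16 of 18 with a median of 0.11 (0.06 without Th1 wild-type replicate 1), led by Wars and then Cars at 0.28. No member of either list passed the test.

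The TGF-β pathway had 19 of 22 measured members higher and 3 lower, with 9 not overlapping on the higher side (40.9%, against 18.3% of all genes). The median of 0.09 ran from 0.05 without Th1 Tet2-/- replicate 1 to 0.18 without Th1 Tet2-/- replicate 2. Smad3, a receptor-activated transducer, read 8.15 and 8.46 in wild-type and 8.82 and 8.58 in Tet2-/- cells (0.40). Eng, a coreceptor, differed by 0.28, and the receptor chain Tgfbr2 overlapped at 8.06 and 8.16 against 8.15 and 8.09. Heat shock chaperones lay on the other side with 14 of 18 lower and a median of -0.08. Without Th1 wild-type replicate 2 that median was -0.00866 and Hsph1, an HSP110 chaperone, moved from -0.29 to -0.0247. Cholesterol synthesis genes were lower in 14 of 19 (7 without Th1 Tet2-/- replicate 2), with a median of -0.06 and Idi1, an isomerase of the pathway, at -0.43. Glycolysis and hypoxia genes were divided, 14 of 29 higher, with Pdk1, which restrains pyruvate entry into mitochondria, at -0.42. Bcl2l11, the gene of the death promoter BIM, read 8.22 and 8.10 against 8.62 and 8.62 (0.46).

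Genes outside these lists completed the 14 per direction with the smallest p among brighter genes. On the higher side Igfbp4, a binding protein of insulin-like growth factors, read 8.99 and 9.13 in wild-type and 9.76 and 9.85 in Tet2-/- cells (0.75). Igf1r, the receptor of those growth factors, read 8.69 and 8.62 against 9.10 and 9.23 (0.51). Mapkapk3, a kinase downstream of p38, read 9.65 and 9.40 against 10.24 and 10.20 (0.69) and differed by -0.43 in Th17 cells. Ripor2, an inhibitor of RhoA, was 0.56 higher and Rasa3, a GTPase-activating protein, 0.59. Stim1, the calcium sensor of the endoplasmic reticulum, was 0.48 higher, as was Max, the partner of Myc. Oaz2 (0.77), Ephx1 (0.54), Zbtb45 (0.51), Kbtbd11 (0.51, or 0.30 as the mean of its probesets), Zfp831 (0.49) and Csrp3 (0.44) made up the rest with Wars. Oaz2, Zfp831 and Csrp3 counted as brighter only through their Tet2-/- means (6.77, 7.02 and 6.97). Their wild-type means (6.00, 6.53 and 6.53) lay below the median gene. On the lower side Lyst, a protein of lysosome trafficking, read 9.61 and 9.89 against 8.99 and 9.19 (-0.66), and Inhba, an activin subunit, 8.50 and 8.88 against 8.05 and 8.05 (-0.64). Pdcd1lg2, the PD-1 ligand PD-L2, differed by -0.46, Hgsnat by -0.53, Tulp3 by -0.51, Bckdhb by -0.47 and the metal transporter Slc39a8 by -0.46. Bckdhb and Ttk counted as brighter only through their wild-type means (6.91 and 6.98), with Tet2-/- means of 6.45 and 6.38. Apart from Ifng, adjusted p in these 28 genes ran from 0.176 to 0.824.

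The genes of the demethylation machinery itself gave no call. The Tet2 probeset (10502284) read 8.14 and 8.03 in wild-type and 8.12 and 7.97 in Tet2-/- cells, and whether its probes fall inside the deletion could not be told, so these levels are no test of the genotype labels. Tet3 read 8.04 and 8.13 against 8.28 and 8.22 (0.16), and Tet1, below the median gene, differed by 0.19. Hells, a chromatin remodeller needed for DNA methylation, read 8.42 and 8.93 against 8.00 and 8.50 (-0.43), and Dnmt3a, a de novo methyltransferase, differed by 0.07. In this list 11 of 24 were higher and 13 lower.

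Markers of the labelled cell type were bright. The 7 measured CD4 T cell markers averaged 10.72 to 10.83 on the 4 Th1 arrays, with a median difference of 0.15. Markers of B cells (9 measured) averaged 5.62 to 5.79, NK cells (9) 5.63 to 5.79, myeloid cells (13) 6.04 to 6.16, CD8 T cells (6) 6.32 to 6.42, dendritic cells (9) 6.21 to 6.31 and erythroid cells (4) 6.10 to 6.18. These averages all lay below the median gene. Single members reached it in their higher genotype mean: 3 B cell, 1 NK cell, 3 myeloid, 2 CD8, 2 dendritic and 1 erythroid marker. B cell markers were lower in 9 of 9 members (5 without Th1 wild-type replicate 2), with Ebf1 at -0.38 and a median of -0.09. Stromal and endothelial markers averaged 6.31 and 6.31 in wild-type and 6.42 and 6.41 in Tet2-/- cells, with 9 of 13 higher and 4 lower. Their median difference was 0.0078, against 0.0072 for all genes, but it reached 0.19 in another setting. The arrays did not overlap in 5 of the 13 on the higher side (38.5%, against 18.3% of all genes) and in 0 on the lower side (against 14.4%). At an unadjusted p under 0.05, 3 were higher (23.1%, against 2.77% of all genes) and 0 lower (against 2.97%), and none passed the adjusted test. Among the stromal and endothelial markers Sparc, a matrix protein, read 7.73 and 7.54 against 8.38 and 7.92 (0.51). Pecam1, an endothelial adhesion molecule, read 6.56 and 6.85 against 7.09 and 7.21 (0.44). The part of these cells in the differences above was not tested.

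Set beside the Th17 cultures, some groups of genes shared a direction and others did not. In Th17 cells 44 of the 47 mitotic genes were higher without Tet2, against 11287 of all 19938 genes. The median of the mitotic genes there was 0.16, against 0.02 for all genes. The difference between the 2 effects had an unadjusted p under 0.05 in 18 of the mitotic genes (38.3%, against 4.55% of all genes) and an adjusted p under 0.05 in 0. On Th17 Tet2-/- replicate 2, the array with the lowest Y-linked level, the mean of the mitotic genes was 8.05, against 7.55 on replicate 1 and 7.67 and 7.61 in wild-type Th17 cells. The 4 measured sex-linked transcripts, from a list that mixes Xist with Y-linked genes, averaged 7.19 to 7.46 on the Th1 arrays. In Th17 cells they averaged 7.90 and 8.39 in wild-type and 8.69 and 6.46 in Tet2-/- cells. The part of this in the differences was not tested. The amino acid response had a median of -0.11 in Th17 cells and T cell receptor activation -0.08, against 0.14 for each in Th1 cells. The sign was the same in both cultures for the TGF-β pathway (0.06 in Th17 cells), heat shock chaperones (-0.04), TNF superfamily ligands (-0.12) and T cell receptor signalling (0.03). Some of these medians were small. For TNF superfamily ligands the Th1 median of -0.04 reached 0.02 in another setting. In Th17 cells 13 of 24 T cell receptor signalling genes were higher, and their median of 0.03 was close to the 0.02 of all genes. Il24 and Il21 were lower in both cultures, each at -0.42 in Th17 cells. Il3 read 4.96 and 4.77 in wild-type Th17 cells, far below the median gene, and whether a lower level could have been seen was not tested. Over all genes limma called 0 for the difference between the 2 effects, with 908 at an unadjusted p under 0.05.

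**Figure D5:**
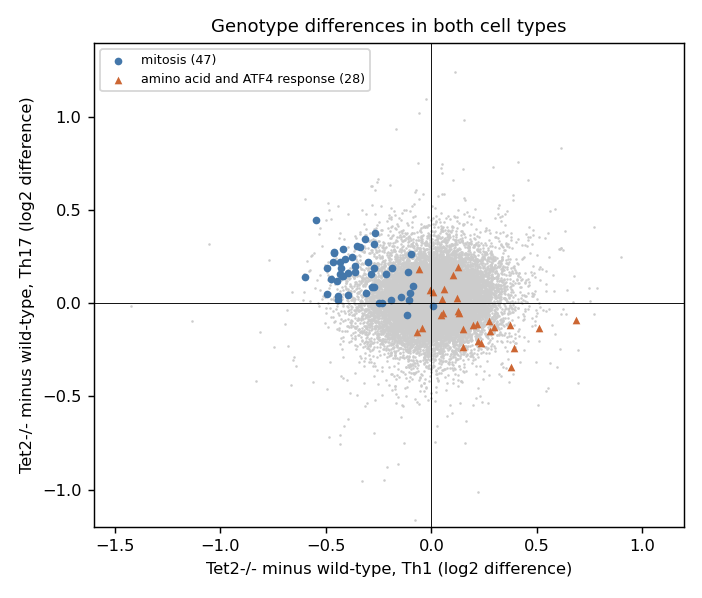
Tet2-/- minus wild-type log2 difference in Th17 cells (vertical axis) against that in Th1 cells (horizontal axis), 1 grey point per gene, with 47 mitosis genes as blue circles and 28 amino acid and ATF4 genes as orange triangles. The mitosis genes lie to the left of 0 except 1 and above 0 in 44 of 47.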

How the data were processed

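RNA from 8 cultures was measured on Affymetrix arrays, 1 per culture. The authors deposited log2 values, 1 for each probeset on each array. Per the submitters' processing notes, RMA and Partek were used (no versions). The log base is not stated in the sources used here and was taken from the values (2.71 to 14.1). The number of arrays limits the precision. Of 35556 probesets 21789 had 1 gene symbol. The brightest probeset of each gene was used, which left 19938 genes with no filter on level.

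Limma 3.58.1 in R 4.3.3 fitted 1 mean per group over all 8 arrays, with an intensity trend in the moderated variance and two-sided tests. P values were adjusted by Benjamini-Hochberg over all genes, and genes under 0.05 were called. Residual degrees of freedom were 4. The script was tested on simulated data. Named genes were Tet2, called genes, the 14 of smallest p per direction that did not overlap between genotypes and whose higher genotype mean was at or above the median gene, a panel of cytokines and lineage factors, and the leading members of each list, and Timp1 was named after its values were seen. Predicted genes, olfactory receptors and small RNAs were not named. Lists were not tested as sets: they are described by counts and medians. The comparison, lists and rule were chosen with earlier results of these data known. Members without a single-symbol probeset (among them Il22 and Tcf7) were not analysed here. Promoters come from RefSeq (GRCm38.p6), with 11 of the 14 lower and 11 of the 14 higher genes matched. Alternatives changed the arrays fitted, the replicate block, the trend, the scaling, the filter and the probesets.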

Additional observations from a re-analysis of the deposited data

How the results depend on the processing

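The Ifng difference kept its direction in all 17 alternatives run and its side of the threshold in 12. With the 4 Th1 arrays alone it was -1.42 (adjusted p = 0.161), and with all probesets -1.42 (adjusted p = 0.353). With both Th17 arrays at the ends of the Y-linked range left out (wild-type replicate 1, Tet2-/- replicate 2), an alternative chosen after seeing the data, it was -1.42 (adjusted p = 0.0838). Leaving out each array in turn gave -1.58 to -1.26. With the Th1 arrays alone, all probesets and both Th17 arrays left out, limma called 0 genes, with 469, 804 and 468 higher and 491, 928 and 488 lower at an unadjusted p under 0.05, and leaving out each array gave 0 to 2. With the replicate number as a block, 1 gene was called, Ifng (adjusted p = 0.0105). Over all genes, replicate 2 minus replicate 1 in wild-type Th1 cells correlated at -0.067 with the same in Tet2-/- Th1 cells. With 1 such difference per genotype, this cannot tell whether same-numbered arrays shared a preparation. In the fit with the block, 25 mitosis members had an unadjusted p under 0.05.

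Without dim genes, which left fewer genes tested, 322 genes were higher and 316 lower at an unadjusted p under 0.05. With all probesets 928 were lower, and leaving out each array gave 493 to 1155 lower, the most without Th1 wild-type replicate 1. The mitosis median ran from -0.50 to -0.22 when each array was left out, and members at an unadjusted p under 0.05 from 2 to 27. Of 47 list medians 27 changed sign in some setting, but none of those for mitosis, DNA replication, T cell receptor activation, interferon-γ response, amino acid response and TGF-β did.

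Among genes not called, these changed sign when each array was left out, between the values given: Tet2 -0.11 and 0.0346, Il12rb2 -0.12 and 0.0914, Il18rap -0.56 and 0.0279, Bcl6 -0.0824 and 0.18, Il2 -0.16 and 0.31, Il4 -0.0527 and 0.16, Il5 -0.36 and 0.10, Il17a -0.13 and 0.18, Il17f -0.15 and 0.15, Csf2 -0.63 and 0.0426, Tnf -0.34 and 0.0929, Cxcr3 -0.10 and 0.13, Ccl3 -0.23 and 0.13, Ccl4 -0.38 and 0.35, Cdc20 -0.27 and 0.0943, Dnmt3a -0.0417 and 0.19, Ifngr1 -0.0178 and 0.24, Nr4a2 -0.21 and 0.16, Slc7a11 -0.20 and 0.0597, Tgfbr2 -0.039 and 0.0628, Troap -0.0216 and 0.0399. With quantile normalization Il10 was 0.00264, Il17f -0.00453, Tgfbr2 -0.00153 and Troap -0.00345, and with centred arrays Il17f was -0.0101, Tgfbr2 -0.00197 and Troap -0.00467. Of 92 named genes that differed by over 0.2, 36 moved by over 1.5 times when 1 array was left out and 3 in another setting (Dgkz, Irf1 and Kbtbd11 with the mean of a gene's probesets). The cause was not tested. With 2 arrays a group, precision is limited, and how far a gene near or under the median level could be seen to fall was not tested.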
